A study of Homo sapiens with 6 samples.

Results

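CXC chemokines are small secreted proteins that steer the movement of cells, and CXCR4 is the best known of their receptors in cancer. The genes described are CXCL9, CXCL10, CXCL11, CXCL1, CXCL8, CXCL12, CXCL16 and CXCR4, taken through every probe set whose platform annotation names exactly 1 of these 8 symbols. That gave 13 probe sets of the 54675 on the array, and 7 of the 8 genes had a probe set above the filter on dim signals. CXCL12 did not. The genes were picked with earlier results of the comparison with control cells in view, so their differences from the control are given as a description, without a test.

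The RNA came from VCaP, an established human prostate cancer cell line with an active androgen receptor and a TMPRSS2-ERG fusion. There were 3 groups of 2 arrays: cells carrying a non-targeting hairpin (NTC), cells carrying PRMT5 shRNA 1, and cells carrying PRMT5 shRNA 2. Doxycycline at 100 ng/ml was given to all groups, NTC included, for 3 days, so no group was uninduced. PRMT5 is an arginine methyltransferase of histones and splicing proteins, and the groups ask what its knockdown does to gene expression. The labels do not say whether a hairpin line was 1 clone or a pool, or whether replicates were separate cultures, so every test below measures only the spread between these arrays, which may be technical.

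As background, CXCL9, CXCL10 and CXCL11 are the interferon-inducible ligands of CXCR3 and attract activated T cells and natural killer cells. CXCL1 and CXCL8 belong to the branch with a Glu-Leu-Arg motif ahead of the CXC cysteines, act through CXCR2 (CXCL8 also through CXCR1) and attract neutrophils, and their genes are classical NF-kB targets. CXCL12 is the ligand of CXCR4 and is made mainly by stromal cells, while CXCR4 on tumour cells has been linked to homing to bone. CXCL16 is made as a membrane protein and binds CXCR6.

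The promoters of the interferon-inducible trio and of the CXCL1 and CXCL8 pair are shown because the trio was lower after knockdown and the pair was not. Each sequence holds the 250 bases before the annotated start of the gene, from RefSeq on GRCh38.p14, written 5′ to 3′ on the strand of the gene. The windows are chr4:76007510-76007759 (CXCL9, minus strand), chr4:76023498-76023747 (CXCL10, minus), chr4:76036071-76036320 (CXCL11, minus), chr4:73869143-73869392 (CXCL1, plus) and chr4:73740319-73740568 (CXCL8, plus). Capitals mark matches, on either strand, to 3 motifs: GAAANNGAA, the core of an interferon-stimulated response element, GGAANTTCC, an NF-kB type element, and TGANTCA, an AP-1 element.
CXCL9: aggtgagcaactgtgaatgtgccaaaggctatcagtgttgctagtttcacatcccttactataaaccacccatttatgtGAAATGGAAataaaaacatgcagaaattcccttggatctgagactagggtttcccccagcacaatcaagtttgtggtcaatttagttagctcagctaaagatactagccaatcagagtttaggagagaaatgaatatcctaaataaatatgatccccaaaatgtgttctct
CXCL10: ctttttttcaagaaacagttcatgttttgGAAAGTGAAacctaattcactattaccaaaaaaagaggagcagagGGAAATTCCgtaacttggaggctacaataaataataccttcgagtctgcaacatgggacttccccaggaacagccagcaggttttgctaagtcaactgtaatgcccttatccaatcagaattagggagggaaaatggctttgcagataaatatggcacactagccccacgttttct
CXCL11: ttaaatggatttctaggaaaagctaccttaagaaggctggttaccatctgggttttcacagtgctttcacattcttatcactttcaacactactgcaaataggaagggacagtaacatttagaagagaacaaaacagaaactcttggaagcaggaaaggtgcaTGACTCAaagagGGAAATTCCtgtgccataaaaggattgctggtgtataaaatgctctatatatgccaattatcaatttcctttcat
CXCL1: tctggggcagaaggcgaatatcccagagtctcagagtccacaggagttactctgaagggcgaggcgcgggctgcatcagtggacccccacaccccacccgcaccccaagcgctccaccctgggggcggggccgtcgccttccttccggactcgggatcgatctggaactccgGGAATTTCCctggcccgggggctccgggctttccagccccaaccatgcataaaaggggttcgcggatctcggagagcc
CXCL8: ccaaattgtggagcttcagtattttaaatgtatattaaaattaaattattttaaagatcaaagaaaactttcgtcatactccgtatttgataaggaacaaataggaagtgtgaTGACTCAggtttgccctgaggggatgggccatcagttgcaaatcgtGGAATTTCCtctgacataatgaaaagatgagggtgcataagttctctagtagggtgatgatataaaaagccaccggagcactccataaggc

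No matches overlapped each other. GAAANNGAA was found in the windows of CXCL9 (bases 171 to 163 before the start) and CXCL10 (221 to 213), and in 6.88% of all 35116 promoter windows of the same length. GGAANTTCC was found in CXCL10 (176 to 168), CXCL11 (75 to 67), CXCL1 (78 to 70) and CXCL8 (91 to 83), and in 0.826% of all windows. Of these, CXCL10 and CXCL11 were lower after knockdown and CXCL1 was higher, at a level close to background. CXCL8 was higher with PRMT5 shRNA 1 only, on its brighter probe set. Any part of the element in these differences was not tested. TGANTCA was found in CXCL11 (87 to 81) and CXCL8 (137 to 131), and in 6.57% of all windows. The CXCL12 window and the 3 CXCR4 windows held none of these motifs. CXCL16 had no window in the promoter set used, so it was not searched. The motifs were chosen after the sequences had been seen, and a match is a run of letters, not a measured binding site.

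As a check on the labels, the brightest PRMT5 probe set read 845 ± 50.0 (SD, n = 2) in the controls, against 135 ± 1.27 under the first hairpin (shRNA 1) and 306 ± 21.1 under the other (shRNA 2). The arrays had been scaled to the same trimmed mean, and their median intensities lay between 14.8 and 16.4, which marks the level near background. Of 12 leukocyte markers with a probe set, 0 reached the array median in 2 or more arrays, and their summed intensity was 60.3 to 60.5 in the NTC arrays, 48.7 to 50.4 under shRNA 1 and 55.6 to 62.6 under shRNA 2. No marker read exactly 0 on every array, and PTPRC, which encodes CD45, stayed between 2.3 and 4.2. Of 12 stromal and endothelial markers only COL1A1 reached the median in 2 or more arrays (PDGFRA did in 1, at 17), and the sums were 83.0 to 85.1, 82.5 to 85.7 and 85.7 to 105.5, respectively. All 10 prostate luminal markers with a probe set, KLK3 and HOXB13 among them, were above it.

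CXCL11 showed by far the largest difference of the 8 genes. Its brightest probe set read 915.7 and 889.8 in the NTC arrays, 84.7 and 82.2 with PRMT5 shRNA 1, and 170.1 and 155 with PRMT5 shRNA 2. All 4 knockdown arrays were far below both controls, and the shRNA 2 arrays were above the shRNA 1 arrays with no overlap. The means corresponded to 9.24% of NTC with shRNA 1 and 18.0% with shRNA 2. On the log2(intensity + 16) scale the differences from NTC were -3.21 ± 0.08 (SE) and -2.36 ± 0.08. In bulk RNA, fewer cells making CXCL11 and less CXCL11 RNA per cell cannot be told apart.

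The second CXCL11 probe set gave the same order of control and knockdown. It read 477.3 and 497.8 with NTC, 57.4 and 43.9 with PRMT5 shRNA 1, and 59 and 72.6 with PRMT5 shRNA 2. These means were 10.4% and 13.5% of NTC. Here the hairpins lay closer together than on the brighter probe set, with the lowest shRNA 2 array only just above the highest shRNA 1 array.

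CXCL10, also called IP-10, was lower as well, but by less. Its intensities were 128.7 and 130.3 with NTC, 54.5 and 49.3 with PRMT5 shRNA 1, and 40.4 and 47.4 with PRMT5 shRNA 2. The knockdown arrays lay at 40.1% and 33.9% of the NTC mean, and the lower level was with shRNA 2, the reverse of CXCL11. The log2 differences were -1.10 ± 0.10 and -1.28 ± 0.10 (SE).

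CXCL9 was dim throughout. It read 30.6 and 36.1 with NTC, 7.8 and 5.4 with PRMT5 shRNA 1, and 10.4 and 9.4 with PRMT5 shRNA 2. Only the NTC arrays were above the array medians, so it passed the filter through the group in which it is high. Its log2 differences, -1.13 ± 0.12 and -0.93 ± 0.12 (SE), depend on the added 16: with 1 added in its place the averaged difference was -1.92, and with 64 it was -0.43.

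**Figure D1:**
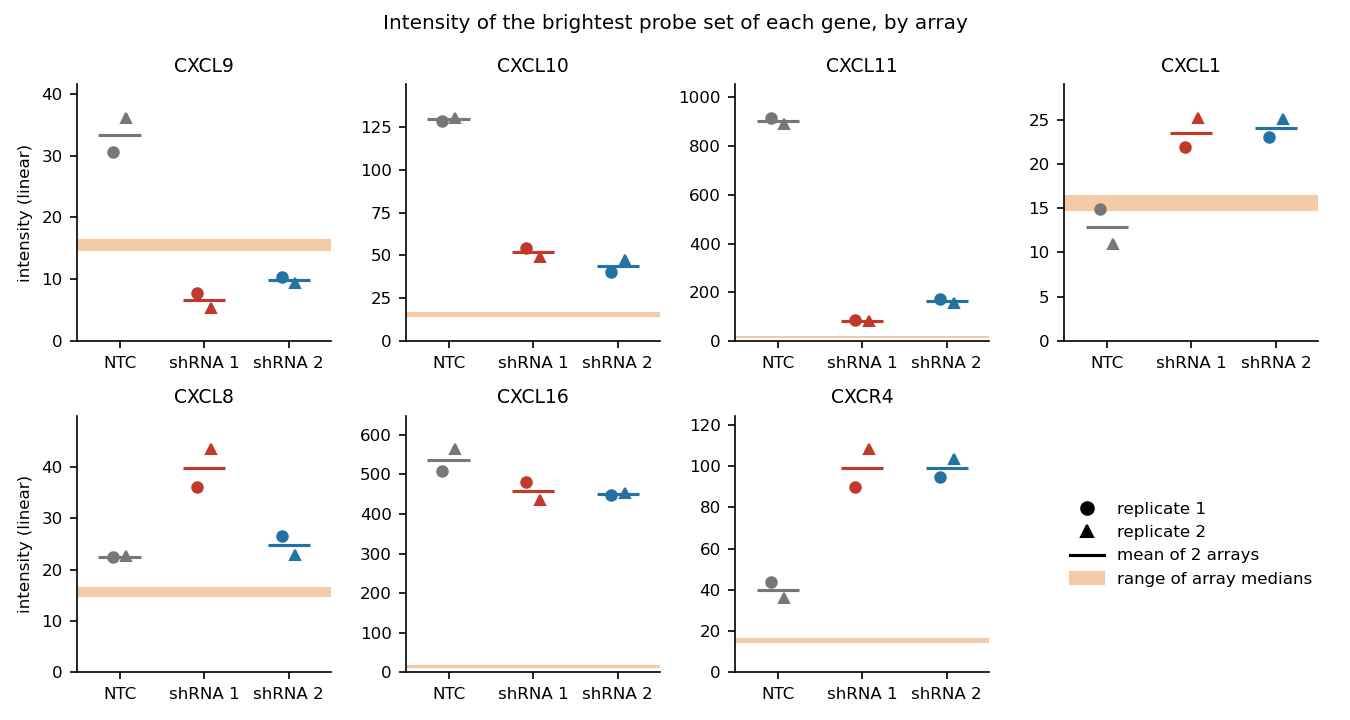
Intensity on a linear axis for the brightest probe set of the 7 genes above the filter, in the NTC, PRMT5 shRNA 1 and PRMT5 shRNA 2 arrays. Circles are replicate 1, triangles replicate 2, lines the mean of 2 arrays, and the band the range of array medians, 14.8 to 16.4. CXCL9, CXCL10 and CXCL11 sit highest with NTC, and CXCL1 and CXCR4 lowest.

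CXCL1 was higher in every knockdown array than in either control, at a level close to background. It read 14.9 and 10.9 with NTC, 21.9 and 25.2 with PRMT5 shRNA 1, and 23 and 25.1 with PRMT5 shRNA 2. Both control arrays were at or below the array medians, the hairpins overlapped, and the log2 differences were 0.45 ± 0.12 and 0.47 ± 0.12 (SE). CXCL1 passed the filter through the knockdown arrays, in which it is high, and its averaged difference of 0.46 was 0.85 with 1 added and 0.19 with 64.

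CXCL8, which encodes interleukin 8, was higher with only one of the hairpins. Its brighter probe set read 22.4 and 22.7 with NTC, 36.1 and 43.4 with PRMT5 shRNA 1, and 26.6 and 22.9 with PRMT5 shRNA 2. The shRNA 2 arrays reached down to the control level, while both shRNA 1 arrays stood clear of the other 4. The log2 differences were 0.53 ± 0.12 and 0.08 ± 0.12 (SE). This probe set is of the type that can hybridise with similar transcripts, and the other CXCL8 probe set stayed between 5.9 and 10.9 on all 6 arrays, below the medians, and did not show the difference.

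CXCL16 was bright and, averaged over hairpins, differed least. It read 508.2 and 563.1 with NTC, 481.2 and 435.1 with PRMT5 shRNA 1, and 449.1 and 453.4 with PRMT5 shRNA 2. The knockdown means were 85.5% and 84.2% of NTC, with log2 differences of -0.22 ± 0.08 and -0.24 ± 0.08 (SE). The 4 knockdown arrays lay below both controls, but the nearest were only 481.2 and 508.2.

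CXCR4 was higher after knockdown to the same extent with both hairpins. Its brightest probe set read 43.9 and 36.2 with NTC, 90 and 108 with PRMT5 shRNA 1, and 94.5 and 103.5 with PRMT5 shRNA 2. Each knockdown mean was 99.0, which is 2.47 times the NTC mean, and the log2 differences were 1.04 ± 0.12 and 1.04 ± 0.12 (SE). The other CXCR4 probe sets were at background on every array. One read 3.5 and 1.7 with NTC against 4 to 5.8 in the knockdown arrays, and the other 1.2 and 0.8 against 3.1 to 3.8. They had the same direction, but at intensities that carry no usable level, so the CXCR4 value rests on 1 probe set.

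CXCL12, the ligand of CXCR4, was not above background. Its probe sets read between 0.9 and 7.7 and between 1 and 6.2 over the 6 arrays, and 0 of the arrays reached the median on either. No difference in CXCL12 was measurable at these intensities.

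**Figure D2:**
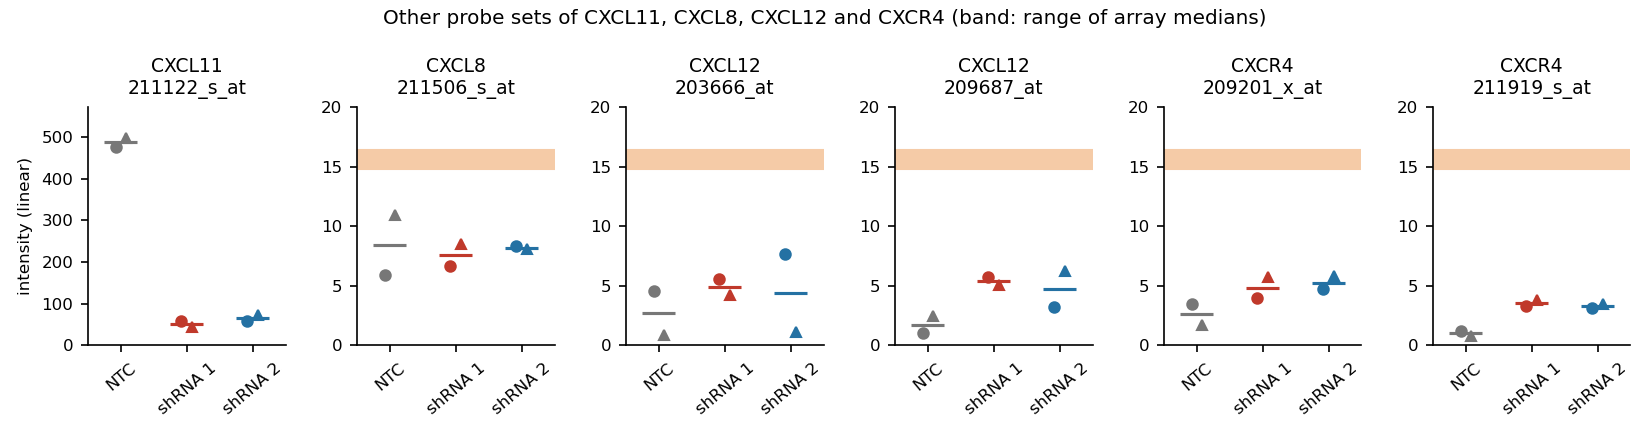
Intensity on linear axes for the 6 probe sets of CXCL11, CXCL8, CXCL12 and CXCR4 that were not the brightest of their gene, by group. Circles are replicate 1, triangles replicate 2 and lines the mean of 2 arrays; the CXCL11 panel has its own axis, from 0 to above 497.8, and in the others the band is the range of array medians, 14.8 to 16.4. All probe sets other than that of CXCL11 lie below the band.

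In the fit over 12413 genes, all 4 knockdown arrays lay above both controls for 18.7% of genes and below both for 20.5%. Of the 7 genes described that passed the filter, 3 had all knockdown arrays above and 4 had them all below. These genes were chosen for differences of this kind, so nothing is read from that count. Averaged over hairpins, the log2 differences were -2.79 ± 0.07 (SE) for CXCL11, -1.19 ± 0.09 for CXCL10, -1.03 ± 0.10 for CXCL9, -0.23 ± 0.07 for CXCL16, 0.30 ± 0.10 for CXCL8, 0.46 ± 0.10 for CXCL1 and 1.04 ± 0.10 for CXCR4. With 64 added in place of 16, the values of the dimmer genes shrank by over 1.5 times, to -0.79 for CXCL10, 0.15 for CXCL8 and 0.65 for CXCR4.

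**Figure D3:**
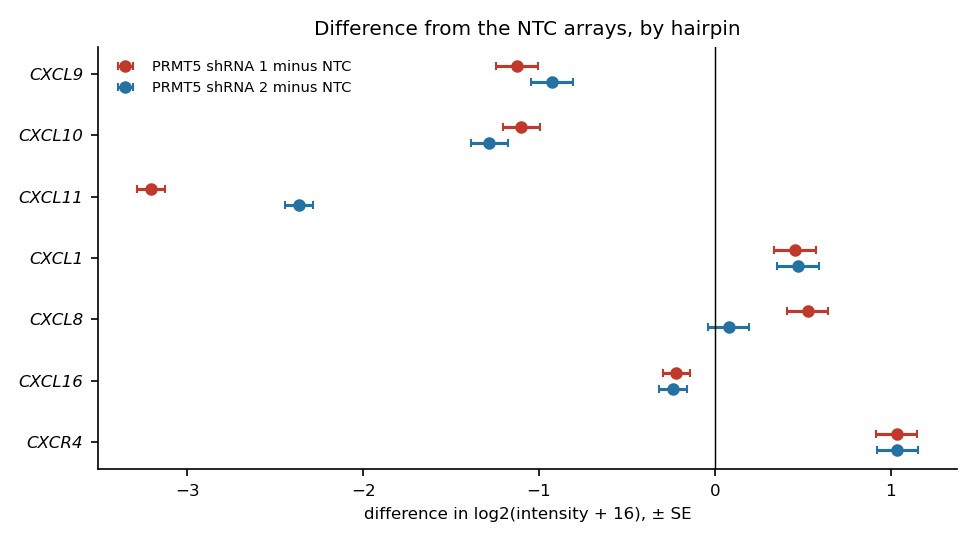
Difference from NTC on the log2(intensity + 16) scale for the 7 genes, with PRMT5 shRNA 1 in red and PRMT5 shRNA 2 in blue; bars are the SE of limma's fit over 2 arrays a group. The hairpins stand apart for CXCL11 (-3.21 and -2.36) and CXCL8 (0.53 and 0.08).

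The contrast between the hairpins compares knockdown arrays with each other, with the controls entering only limma's estimate of the spread, and it was tested. limma called 25.7% of all genes there, 18.3% higher and 7.38% lower with shRNA 2. Among all called genes 71.3% were higher with shRNA 2, and 84.7% once each array was centred on its median. Both shRNA 2 arrays lay on one side of both shRNA 1 arrays for 63.5% of genes. Of the 7 genes, CXCL11 was called higher with shRNA 2 than with shRNA 1 and CXCL8 lower, a share close to that of all genes. CXCL11 differed by 0.84 ± 0.08 (SE; limma, adjusted p = 0.00023), and both shRNA 2 arrays were higher. On the second CXCL11 probe set the difference was 0.30 ± 0.12 and did not pass (limma over probe sets, adjusted p = 0.087), although both arrays were again higher, so the probe sets disagree on its size.

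CXCL8 differed by -0.45 ± 0.12 (SE; limma, adjusted p = 0.017), lower in both shRNA 2 arrays. That call was lost without PRMT5 shRNA 1 replicate 2 (-0.36, adjusted p = 0.127) and without PRMT5 shRNA 2 replicate 2 (-0.39, adjusted p = 0.0912). For the other 5 genes the hairpins did not differ beyond the threshold, with 95% intervals from limma of -0.07 to 0.46 for CXCL9, -0.41 to 0.05 for CXCL10, -0.24 to 0.28 for CXCL1, -0.19 to 0.15 for CXCL16 and -0.25 to 0.26 for CXCR4. For CXCL9 every knockdown array was below the array medians, so its interval gives no usable comparison. The CXCL9 difference of 0.20 was 0.54 with 1 added and 0.07 with 64. PRMT5 itself was lower with shRNA 1 than with shRNA 2, as given above. Any link between the PRMT5 level and the levels of these genes was not tested. On the brighter CXCL11 probe set the order of the groups was NTC, shRNA 2 and shRNA 1 from high to low. For CXCL10 and CXCL16 NTC was highest, with no difference between hairpins that passed. For CXCL9 NTC was also highest, and its knockdown arrays gave no usable order.

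CXCL9, CXCL10 and CXCL11 share a position that the choice of genes did not use. In RefSeq they are neighbours on chromosome 4, on the minus strand, and CXCL10 and CXCL11 lie inside the span of ART3, a gene of the ADP-ribosyltransferase family on the plus strand. ART3 was singled out after its values were seen. It read 264.5 and 257.8 with NTC, 12.1 and 9.9 with PRMT5 shRNA 1, and 30.9 and 28.4 with PRMT5 shRNA 2. Its knockdown arrays were near or below background with shRNA 1 and slightly above it with shRNA 2, the same order of groups as CXCL11. The log2 differences were -3.36 ± 0.10 and -2.60 ± 0.10 (SE). The sources used here do not give the strand that the labelled material keeps, and whether signal passes between ART3 and the chemokine genes was not tested.

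The genes on either side of this block did not share the size of the difference. On the side of CXCL9, SDAD1, a ribosome biogenesis factor, differed from NTC by -0.08 ± 0.06 with shRNA 1 and -0.28 ± 0.06 with shRNA 2 on the log2 scale (SE), and NAAA, a lysosomal amidase, by 0.03 ± 0.06 and 0.26 ± 0.06. On the side of CXCL11, NUP54, a nuclear pore protein, differed by 0.23 ± 0.10 and 0.18 ± 0.10, and SCARB2, a lysosomal membrane protein, by 0.05 ± 0.06 and 0.06 ± 0.06. Each value rests on the brightest probe set of its gene. As linear means with NTC, shRNA 1 and shRNA 2, other SCARB2 probe sets read 1250.7, 1561.1 and 1270, and 505.3, 786.15 and 514.85. Both were higher with shRNA 1 only, and a dim one showed no such rise. Another NAAA probe set read 292, 378.65 and 374.45, while its remaining ones changed less. Another SDAD1 probe set read 538.6, 438.35 and 424.45, and a further one 654.2, 722 and 541.05. Between hairpins NAAA (0.24 ± 0.06) and SDAD1 (-0.20 ± 0.06) passed, in opposite directions (limma, adjusted p = 0.018 and 0.023), but neither in every alternative. PPEF2 and FAM47E, the next genes out, were below the filter.

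**Figure D4:**
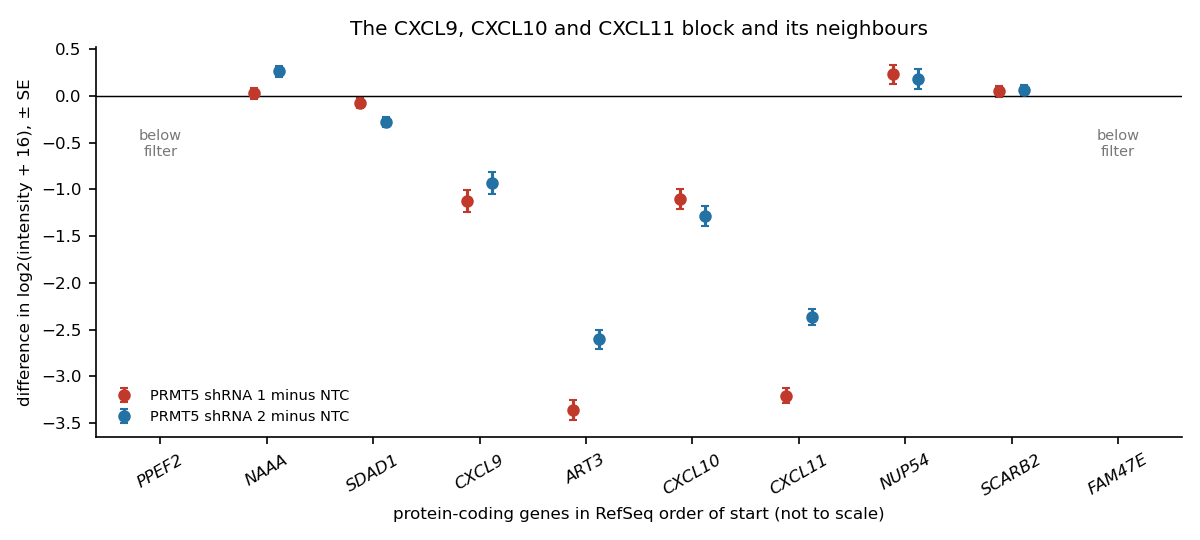
Difference from NTC on the log2(intensity + 16) scale for the protein-coding genes around CXCL9, CXCL10 and CXCL11, in RefSeq order and not to scale, with PRMT5 shRNA 1 in red and PRMT5 shRNA 2 in blue; bars are the SE. The 4 genes from CXCL9 to CXCL11, ART3 included, lie between -0.93 and -3.36, and the tested flanking genes between -0.28 and 0.26. Each gene is shown by its brightest probe set only.

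The genes with the most similar values over the 6 arrays were found by the distance between log2 values centred on the NTC mean. For CXCL11 the nearest were ART3 (distance 0.41), IL1RAPL1, of the interleukin 1 receptor family (0.47), and SAMD5 (0.58). ART3 was below the array medians with shRNA 1, so its nearness depends on the added 16, as given above. IL1RAPL1 went from 559 ± 11.6 (SD, n = 2) with NTC to 58.5 ± 10.4 with shRNA 1 and 96.3 ± 11.4 with shRNA 2. For CXCL10 they were THSD7A (0.24), the orphan receptor GPR173 (0.30) and the growth factor receptor FGFR1 (0.30), and FGFR1 went from 239 ± 10.5 to 107 ± 1.27 and 104 ± 7.50. THSD7A was below background after knockdown, so its nearness depends on the added 16: with 1 added its averaged difference was -2.61, against -1.42 for CXCL10. FGFR1 rests on its brightest probe set, since the mean over its kept probe sets gave -0.43 in place of -1.07. For CXCR4 they were HEG1, a membrane protein of vessels and the heart (0.18), INHBB, an activin subunit (0.19), and the long noncoding RNA UCA1 (0.23). HEG1 went from 171 ± 19.3 to 347 ± 11.8 and 382 ± 15.3. With NTC, UCA1 averaged 9.85, below the array medians, and INHBB 18.75, close to them, so their nearness also depends on the added 16. With 1 added UCA1 gave 1.74 and INHBB 1.54, against 1.29 for CXCR4. With 64 added they gave 0.42 and 0.54, against 0.65. The mean over kept probe sets gave -1.88 in place of -2.66 for IL1RAPL1, -1.82 in place of -2.77 for SAMD5 and 0.85 in place of 1.03 for HEG1.

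The other genes of the pathway were taken from lists chosen by function. Averaged over hairpins, limma called 32.4% of all 12413 genes, 15.4% higher and 17.0% lower, with a median log2 difference of -0.01; for shRNA 1 alone it called 39.3% and for shRNA 2 alone 21.4%. Of 19 other CXC ligands and receptors only 5 were above the filter, of which 1 rose, 3 fell and 1 did not pass (median -0.38). PF4V1 (-0.63 ± 0.12 SE, limma, adjusted p = 0.0020) and PF4 (-0.61 ± 0.11, adjusted p = 0.0014), the platelet factor genes of the chromosome 4 cluster that also holds CXCL1 and CXCL8, fell. They are near-identical copies, and PF4 was near or below the array medians in the knockdown arrays. CXCL5, another ligand of CXCR2, fell by 0.38 ± 0.10 (limma, adjusted p = 0.017), but not without NTC replicate 1 (adjusted p = 0.054) or NTC replicate 2 (adjusted p = 0.132).

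Levels differed among the other receptors. CXCR3, the receptor of CXCL9, CXCL10 and CXCL11, was at background and read between 0.4 and 9.5 on its probe sets over all arrays. ACKR3, a scavenging receptor of CXCL12 and CXCL11, read 407.8 and 454.4 with NTC, 543.7 and 586.6 with PRMT5 shRNA 1, and 414.7 and 477.9 with PRMT5 shRNA 2. On this probe set, its brightest, ACKR3 was higher with shRNA 1 (0.38 ± 0.09 SE, limma, adjusted p = 0.0057) and overlapped the controls with shRNA 2. Its averaged rise of 0.21 ± 0.07 only just passed (limma, adjusted p = 0.0499). That call was lost without any single array other than PRMT5 shRNA 2 replicate 1, for example without NTC replicate 1 (0.14). A dimmer ACKR3 probe set read 30.4 and 30.3 with NTC, 37 and 28.7 with shRNA 1, and 27 and 26.7 with shRNA 2. On the mean over kept probe sets the averaged rise was 0.10 and did not pass (limma, adjusted p = 0.25). CXCR6, the receptor of CXCL16, was dim and did not pass on average (0.21 ± 0.11). It did pass with shRNA 2 (0.40 ± 0.13 SE, limma, adjusted p = 0.041), not with shRNA 1 (0.02 ± 0.13), and between hairpins (0.39 ± 0.13, adjusted p = 0.044), the last only just, and no longer when any 1 array other than PRMT5 shRNA 1 replicate 1 was left out (adjusted p from 0.053 to 0.279). Of the CC, XC and CX3C families, 2 of 40 listed genes were above the filter and both rose. CCL2, which attracts monocytes, rose by 0.37 ± 0.10 and CCL28, a mucosal chemokine, by 0.23 ± 0.07 (limma, adjusted p = 0.016 and 0.022). CCL2 was not called without NTC replicate 2 (0.30), nor CCL28 without NTC replicate 1 (0.16) or PRMT5 shRNA 1 replicate 2 (0.23).

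Of 23 tested genes for interferon receptors, JAK-STAT proteins and IRF factors, which act upstream of CXCL9, CXCL10 and CXCL11, 3 rose, 4 fell and 16 did not pass (median -0.06). IRF8, an interferon regulatory factor known from blood cells, fell most, by 1.08 ± 0.08 (SE, limma, adjusted p = 3.9e-06), from 219 ± 5.66 (SD, n = 2) with NTC to 79.4 ± 4.88 with shRNA 1 and 114 ± 11.5 with shRNA 2. IRF7, which drives interferon genes, fell by 0.50 ± 0.11 (adjusted p = 0.0047) and PTPN2, a phosphatase that limits JAK-STAT signalling, by 0.42 ± 0.08 (adjusted p = 0.0021), and STAT3 rose by 0.40 ± 0.07 (adjusted p = 0.00098). With shRNA 2 alone IRF7 (-0.21 ± 0.12) and STAT3 (0.20 ± 0.08) did not pass.

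Of 22 tested NF-kB genes, 2 rose, 5 fell and 15 did not pass (median -0.06). NFKBIA, the inhibitor that holds NF-kB in the cytoplasm and is itself an NF-kB target, rose by 0.64 ± 0.09 (SE, limma, adjusted p = 0.00026), though only 0.09 without the _x_at and _s_at probe sets (adjusted p = 0.602). IKBKB, the kinase that marks that inhibitor for destruction, fell by 0.46 ± 0.08 (adjusted p = 0.00096) and NFKBIZ, a nuclear member of the inhibitor family, by 0.39 ± 0.08 (adjusted p = 0.0032), which did not pass with shRNA 1 alone (-0.22 ± 0.09, adjusted p = 0.068). IL1RAP, the co-receptor of interleukin 1, rose by 0.35 ± 0.10 (adjusted p = 0.020), but not without NTC replicate 1 (0.23) or PRMT5 shRNA 1 replicate 2 (0.33). Against NTC, IKBKB passed for the first hairpin (-0.75 ± 0.09) but did not for the second (-0.17 ± 0.09), and the difference between hairpins passed (limma, adjusted p = 0.0016).

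Of 23 tested genes for CXCR4 signalling, trafficking and control, 4 rose, 4 fell and 15 did not pass (median 0.01). EPAS1, a hypoxia-inducible factor, rose by 1.05 ± 0.09 (SE, limma, adjusted p = 6.3e-06), from 422 ± 27.2 (SD, n = 2) to 891 ± 104 with shRNA 1 and 896 ± 122 with shRNA 2, and like CXCR4 it did not differ between hairpins (0.01 ± 0.10). The EPAS1 values rest on its brightest probe set, since its others were below the medians on every array. HGS, which sorts internalised CXCR4 to lysosomes, fell by 0.43 ± 0.09, and the receptor kinases GRK3 and GRK5 by 0.33 ± 0.06 and 0.31 ± 0.10 (limma, adjusted p = 0.0041, 0.0015 and 0.042). Each of these 3 passed for the first hairpin and not for the second. The GRK3 values rest on its brightest probe set. As linear means with NTC, shRNA 1 and shRNA 2, its others read 46.95, 44.65 and 46.1, and 92.45, 82.3 and 78.8. HGS was not called without NTC replicate 2 (-0.37), nor was GRK5 without either NTC array (-0.26 and -0.35 without replicate 1 and 2), without the first shRNA 1 array (-0.26) or without the second shRNA 2 array (-0.25).

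**Figure D5:**
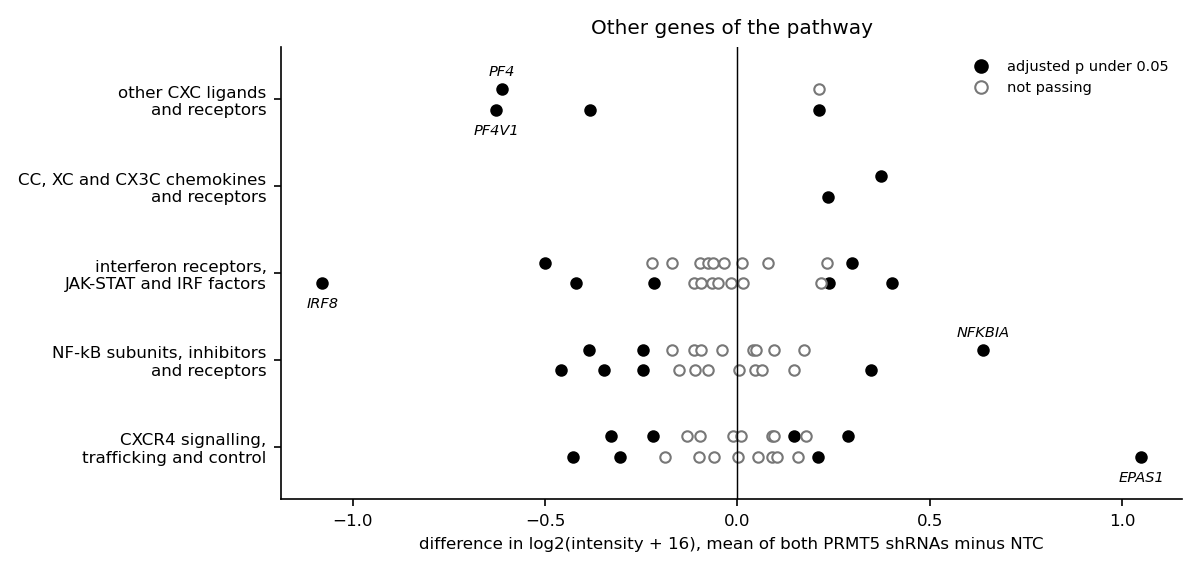
Averaged difference from NTC on the log2(intensity + 16) scale for each tested gene of the 5 lists, 1 point a gene; filled points passed limma's adjusted p under 0.05 and open points did not. IRF8 (-1.08) and EPAS1 (1.05) lie farthest from 0.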

How the data were processed

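Intensities of 54675 probe sets were deposited on a linear scale, 1 column per sample, and the submitters' processing notes name MAS5; the version and any detection call were not given in the sources used here. The deposited intensities had a mean of 150 in each array after trimming 2% at each end, and no further scaling was applied. Per the labels' protocols, RNA was column-purified with DNase digestion, amplified and labelled with biotin. The number of value columns matching no sample was 0.

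Probe sets were named from the platform annotation, and Entrez IDs matched to RefSeq of GRCh38.p14 changed 0 symbols. All 62 control probe sets were dropped. A probe set was kept if it reached its array's median in at least 2 of 6 arrays, and the brightest kept probe set with 1 symbol stood for a gene, which left 12413 genes. log2(intensity + 16) was fitted with limma 3.58.1 in R 4.3.3, with 1 coefficient per group, an intensity trend, 3 residual and 7.89 prior degrees of freedom. Genes were called at a two-sided Benjamini-Hochberg adjusted p under 0.05 over all genes. The added 16 makes differences of dim genes smaller. Precision is limited by there being 2 arrays a group; replicates had a median SD of 0.08 on the log2 scale. The fit was tested on simulated data.

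The genes described, the lists and the tests were chosen with earlier results of these data known. Named besides the 8 genes were, per list, the 4 called genes with the largest averaged difference (all called ones among other CXC genes), CXCR3 and ACKR3, and the 3 nearest patterns of CXCL10, CXCL11 and CXCR4. Alternatives covered the pseudocount, scaling, filter, probe set choice, replicate block, trend, grouping of hairpins and leaving out each array.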

Additional observations from a re-analysis of the deposited data

Results flagged for a closer look

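The effects of the PRMT5 hairpins differed by limma's contrast between them (adjusted p under 0.05 over all genes) for 16 genes, taken from the 8 described, the named list genes, CXCR6 and the genes flanking the chromosome 4 block. PRMT5 itself, and ART3 and the nearest patterns, which were chosen on their values, are not counted. Differences are PRMT5 shRNA 2 minus PRMT5 shRNA 1 on the log2 scale, and the same contrast called 25.7% of all genes. Groups of 2 arrays are too small for a test of single outlying arrays.

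Calls that held in every alternative in which the gene was tested were those of CXCL11 (0.84), IRF7 (0.57), STAT3 (-0.41), IKBKB (0.59) and HGS (0.76). The other 11 were lost in at least 1. The second CXCL11 probe set, fitted alone, is not counted among these alternatives. It gave 0.30 and did not pass (limma over probe sets, adjusted p = 0.087). CXCL8 differed by -0.45, with the arrays it rests on given above. ACKR3 (-0.33) was not called without PRMT5 shRNA 1 replicate 2 (adjusted p = 0.126) or without shRNA 2 replicate 1 (0.0898), and IRF8 (0.45) not without shRNA 1 replicate 2 (0.0679). NFKBIZ (-0.33) and GRK5 (0.47) lost the call without shRNA 1 replicate 1 (adjusted p = 0.158 and 0.101) and without shRNA 2 replicate 1 (0.0843 and 0.0826). IL1RAP (-0.43) lost it without either shRNA 1 array (0.0571 and 0.119) and without shRNA 2 replicate 1 (0.0908). On the mean over kept probe sets, IL1RAP differed by -0.17 (adjusted p = 0.227), GRK3, at 0.50 on its brightest probe set, by 0.16 (adjusted p = 0.104), and NAAA, at 0.24, by 0.0043 (adjusted p = 0.963). NAAA was also not called without either shRNA 1 array (0.107 and 0.0579) or without shRNA 2 replicate 1 (0.0671). SDAD1 (-0.20) was lost without either shRNA 1 array (0.0755 and 0.126), without shRNA 2 replicate 2 (0.0657), with arrays centred on their medians (0.0951), with no intensity trend (0.0644) and without _x_at and _s_at probe sets (-0.05). PF4 (0.37) lost the call without any 1 of the 6 arrays, and CXCR6 (0.39) without any 1 other than shRNA 1 replicate 1. PF4 was near or below the array medians with both hairpins, where intensities carry no usable order.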

How the results depend on the processing

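No difference from NTC of the genes described changed direction in any alternative run. Of their 445 values under an alternative, differences between hairpins included, 398 stayed within 1 SE or kept their direction and side of the threshold, 38 moved further, nearly all with a pseudocount of 1 or 64, 2 lost their call and 7 changed sign. Those 7 were differences between hairpins that passed under no setting. With 1 array left out they ran from -0.11 to 0.12 for CXCR4, from -0.041 to 0.079 for CXCL1 and from -0.090 to 0.051 for CXCL16; CXCR4 also gave -0.012 with quantile normalization, and CXCL16 0.037 with arrays centred on their medians. The same contrast, uncalled, took both signs with 1 array left out for CCL2 (-0.14 to 0.12; 0.046 with arrays centred), EPAS1 (-0.13 to 0.14), PF4V1 (-0.016 to 0.36) and PTPN2 (-0.056 to 0.18), and was -0.052 for NFKBIA on the mean over probe sets and -0.22 without _x_at and _s_at probe sets, against 0.12. The CXCL11 difference between hairpins, on the brighter probe set or the mean of both, stayed called in all 17 alternatives that give it, between 0.57 and 0.95. The CXCL8 difference lay between -0.66 and -0.22 over 15, and CXCL8 was not tested with the stricter filter or without _x_at and _s_at probe sets, since its probe set falls out. Of the other named genes, 77 of 880 values lost their call.

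The number of the described genes whose knockdown arrays lay apart from both controls was 7, and 4 with the stricter filter, where only 4 were tested; leaving out 1 array gave 6 to 7, since CXCL9 fell below the filter without either NTC array. The number called between hairpins was 2, and 1 with the stricter filter and without _x_at and _s_at probe sets (leaving out 1 array, 1 to 2). Of the 75 tested genes of the 5 lists, 28 were called on average, 17 of fewer tested without _x_at and _s_at probe sets, and 7 with both hairpins pooled into 1 group, which counts their disagreement as spread (leaving out 1 array, 15 to 28). Pooled in that way, PF4V1, PF4, IRF8, PTPN2, NFKBIA and EPAS1 stayed called and the other 12 of the 18 named list genes did not. Genes called overall were 4016 on average (1501 with both hairpins as 1 group; leaving out 1 array, 2180 to 4254), 4879 with shRNA 1 (3183 to 5297), 2661 with shRNA 2 (1551 to 2450) and 3192 between hairpins (1327 to 2834). Leaving out an array also lowers the power, and the lone array left is assumed to vary like the others. With the replicate number as a block, 3705, 4559, 2435 and 2829 genes were called, and 25 list genes, 7 separated genes and 2 between hairpins. The labels do not say that a number marks a shared batch, and the correlations of same-numbered arrays between groups were -0.09, -0.18 and -0.0045. Among the named genes, GRK5 (averaged, adjusted p = 0.051) and PF4 (between hairpins, adjusted p = 0.0576) lost their calls under the block. Signals under the array medians carry no usable order.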
